A study of Mus musculus with 6 samples.

Results

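Glycolysis and hypoxia target genes were followed in the mouse macrophage line RAW264.7 after silencing of Ep300, which encodes the acetyltransferase and transcriptional coactivator p300. The 30 genes were chosen by name out of 49492 rows of the count table and cover glucose uptake, each step of glycolysis, the formation and export of lactate, and a set of hypoxia target genes outside glycolysis. All 30 had a row in the table and 29 passed the filter on low counts. The tested libraries came from cells given 50 nM of an siRNA against Ep300 (3 libraries, genotype label Ep300 silenced), and the others from cells of the same line given 50 nM of a control siRNA (3 libraries). Both groups were transfected with the same reagent and collected after 48 h. The silencing is transient, and 1 cell line was used. Nothing in the labels states that replicate libraries are separate cultures, so the spread behind each p-value may be technical.

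Glycolysis splits glucose into pyruvate in the cytosol. Pyruvate either enters mitochondria through pyruvate dehydrogenase or is reduced to lactate and exported, and macrophages are known for a strong shift towards lactate when activated. Hypoxia-inducible factor 1 (HIF-1), a dimer of HIF-1α (Hif1a) and ARNT, switches on many genes of this route by binding hypoxia response elements. It recruits p300 and its paralog CBP as coactivators, and HIF-1α is controlled largely by oxygen-dependent breakdown of the protein, which RNA counts do not measure. The comparison asked whether mRNAs of HIF targets followed the fall of Hif1a mRNA after Ep300 siRNA. Only some genes are named below as HIF targets, as background, and a gene without that name is not thereby a non-target.

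Ep300 itself checked the labels. It held 51.1, 59.0 and 55.0 CPM (counts scaled to a common library size and composition) in Ep300 siRNA libraries, against 106.8, 115.3 and 118.4 CPM in control siRNA libraries. The groups lay far apart (log2 fold change −1.04 ± 0.07, SE, edgeR adjusted p = 3.62e-05). Total counts were 29993567 to 37132333 in Ep300 siRNA libraries and 35930658 to 45377510 in control siRNA libraries, and the 30 genes took 0.845 to 0.916% of the counts after Ep300 siRNA and 0.866 to 0.933% after control siRNA. Ep300 siRNA replicate 1 stood apart, with 5823 CPM of the ribosomal-repeat row Gm42418, against 2174 and 1363 CPM in the other Ep300 siRNA libraries and 1327 to 1529 CPM in control siRNA libraries. Leaving it out changed no call among the 30 genes. Macrophage markers summed to 10908 to 11836 CPM in Ep300 siRNA libraries and 9630 to 11272 CPM in control siRNA libraries. Of these 8 markers, 1 passed by edgeR (12.5%, beside 6.78% of all genes tested): Fcgr3, an Fc receptor, rose (log2 fold change 0.42 ± 0.07, SE, edgeR adjusted p = 0.00497). Csf1r, a growth factor receptor of macrophages, was lower in every Ep300 siRNA library and passed by DESeq2 and limma-voom but not by edgeR (−0.24 ± 0.07, SE, edgeR adjusted p = 0.0666). Adgre1, which encodes F4/80, was also lower in every Ep300 siRNA library (−0.23 ± 0.07, SE, edgeR adjusted p = 0.0855). Cd68 lay the other way, higher in every Ep300 siRNA library (0.13 ± 0.07, SE, edgeR adjusted p = 0.3). In CPM the groups did not overlap for 2 higher and 2 lower markers of the 8 (50%, beside 27.5% of all genes tested). The part of these marker differences in the results was not tested. The 21 markers of other cell types summed to 1.81 to 2.15 CPM in Ep300 siRNA libraries and 2.22 to 2.43 CPM in control siRNA libraries. Epcam, Cd8a, Ly6g and S100a9 were at 0 in all 6, and none of the 4 markers tested passed by edgeR, DESeq2 or limma-voom, nor at an unadjusted p under 0.05. Kdr, of endothelial cells, had the smallest p of these (log2 fold change −0.35 ± 0.43, SE, edgeR adjusted p = 0.699), and mt-Cytb that of the 13 mitochondrial mRNAs (0.19 ± 0.08, adjusted p = 0.217), none of which passed by any of the 3 tools and 1 of which had an unadjusted p under 0.05.

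Hif1a (GRCm38 chromosome 12, 73901375 to 73947530, plus strand) held 134.3, 141.1 and 142.9 CPM in Ep300 siRNA libraries, against 183.0, 197.9 and 195.2 CPM in control siRNA libraries. Every Ep300 siRNA library lay below every control siRNA library. It fell to 0.726 of the control siRNA mean (log2 fold change −0.46 ± 0.06, SE, 95% interval −0.59 to −0.33, edgeR adjusted p = 0.00136). In bulk RNA, fewer cells with a transcript and less of it per cell cannot be told apart. An opposite-strand gene, Gm15283, overlaps 5.6% of the Hif1a exon bases, and whether the counting used strand was not given in the sources used here. Some genes of the set have larger overlaps. On the opposite strand these are Ankrd37 (22.7%, with Lrp2bp), Bnip3 (22.3%, Gm45507), Gpi1 (11.5%, Gm26762) and Ndrg1 (6.35%, Gm17035). On the same strand they are Pkm (15.3%, Gm49759) and Pfkm (10.2%, Gm26513).

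The 29 tested genes moved little. By edgeR's quasi-likelihood test, Pfkl rose, Slc16a3 fell, and 27 did not pass an adjusted p of 0.05. That is 6.90% of the 29, beside 6.78% of all 15741 genes tested, of which 435 (2.76%) rose and 633 (4.02%) fell. With scaling by library size alone, 316 rose and 788 fell over all genes, with 1 rise and 1 fall among the 29. At an unadjusted p under 0.05 there were 7 of 29 (24.1%), beside 22.2% of all genes. They were Pfkl and P4ha1, higher after Ep300 siRNA, and Slc16a3, Vegfa, Hk2, Ldha and Slc16a1, lower. The log2 fold changes of the 29 ran from −0.32 to 0.30 with a median of 0.01, beside a median of −0.0038 over all genes tested. In CPM, the groups did not overlap for 7 of 29 genes (24.1%), 3 higher and 4 lower, beside 27.5% of all genes. These shares were close to the background. Standard errors of the 29 lay between 0.06 and 0.21 on the log2 scale.

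**Figure D1:**
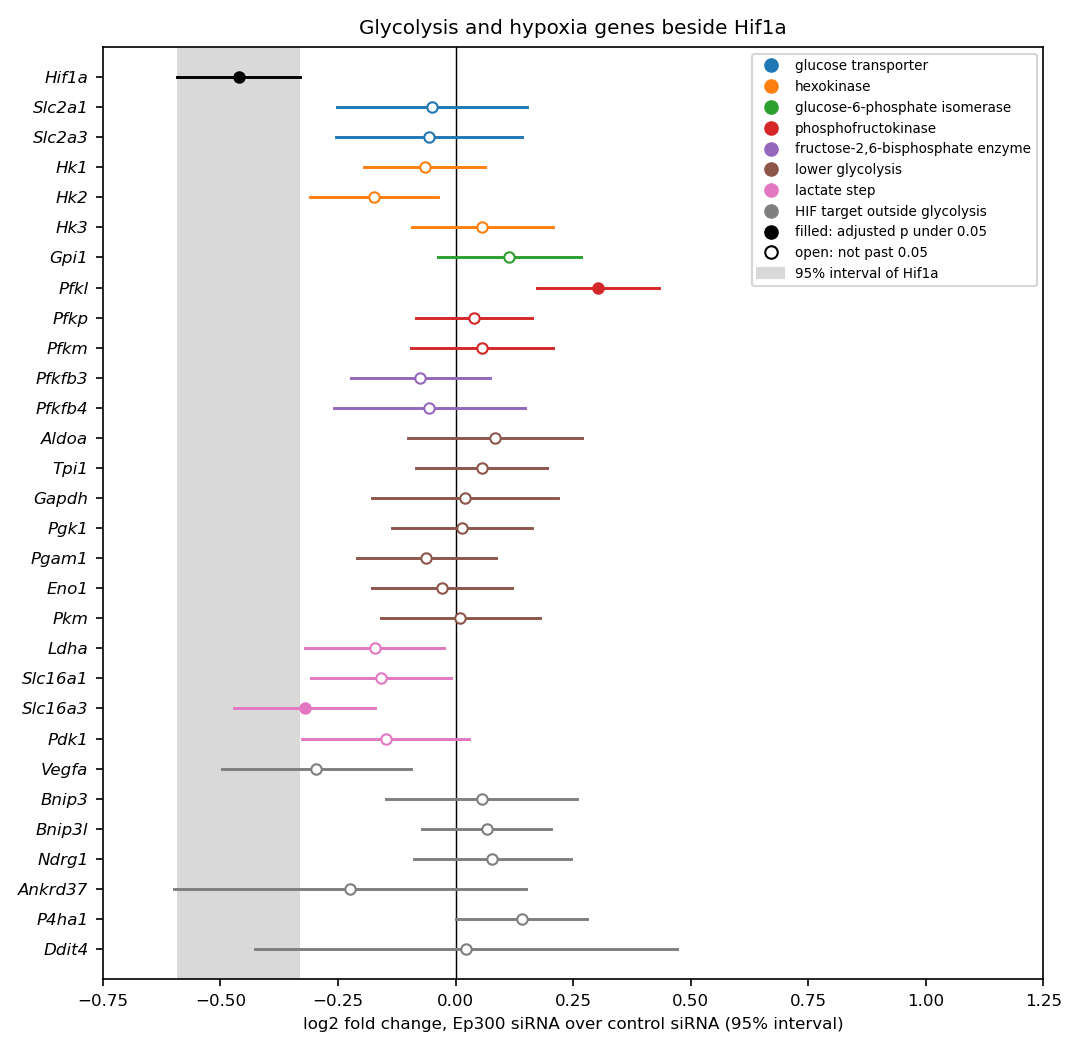
The log2 fold change of each of the 29 tested genes (Ep300 siRNA over control siRNA, x axis) is drawn with its 95% interval below that of Hif1a, coloured by role, with filled points past an adjusted p of 0.05. Pfkl lies at 0.30 and Slc16a3 at −0.32, and 25 of the 29 intervals lie wholly to the right of the grey band of Hif1a (−0.59 to −0.33).

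Promoter sequences are shown for 4 genes to set the letters of the core hypoxia response element beside the results: Slc16a3, which fell, Ldha, a classical HIF target of the lactate step, Pfkl, which rose, and Bnip3, a classical HIF target that did not pass the test. Each run holds the 250 bases before a RefSeq start (GRCm38.p6), 5′ to 3′ on the gene's strand. Capitals mark ACGTG or GCGTG on either strand (CACGT and CACGC when read on the other), and CACGTG counts as a match on each strand. The windows are chr11:120948817-120949066, plus strand, for Slc16a3, chr7:46845554-46845803, plus strand, for the first of the Ldha starts, chr10:78009808-78010057, minus strand, for Pfkl and chr7:138909507-138909756, minus strand, for Bnip3.
Slc16a3: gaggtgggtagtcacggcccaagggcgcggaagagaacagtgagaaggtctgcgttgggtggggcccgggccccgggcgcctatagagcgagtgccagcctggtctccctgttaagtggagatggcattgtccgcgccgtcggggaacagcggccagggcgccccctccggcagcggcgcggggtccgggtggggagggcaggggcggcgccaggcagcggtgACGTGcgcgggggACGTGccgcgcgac
Ldha: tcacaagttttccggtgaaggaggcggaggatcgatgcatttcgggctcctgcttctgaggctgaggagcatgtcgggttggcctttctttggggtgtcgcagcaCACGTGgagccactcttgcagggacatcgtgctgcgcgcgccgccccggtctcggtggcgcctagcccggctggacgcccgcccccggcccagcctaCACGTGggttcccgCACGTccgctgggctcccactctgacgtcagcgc
Pfkl: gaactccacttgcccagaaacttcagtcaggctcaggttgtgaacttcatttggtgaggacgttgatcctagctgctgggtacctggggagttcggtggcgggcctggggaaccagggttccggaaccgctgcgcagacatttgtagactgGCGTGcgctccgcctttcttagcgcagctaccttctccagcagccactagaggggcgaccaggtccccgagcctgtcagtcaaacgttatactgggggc
Bnip3: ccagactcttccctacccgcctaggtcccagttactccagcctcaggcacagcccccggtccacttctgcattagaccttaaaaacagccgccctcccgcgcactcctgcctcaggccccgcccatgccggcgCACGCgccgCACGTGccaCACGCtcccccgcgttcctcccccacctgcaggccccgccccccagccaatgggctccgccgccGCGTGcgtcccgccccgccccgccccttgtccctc

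The Ldha and Bnip3 windows shown each held 5 matches, the Slc16a3 window 2 and the Pfkl window 1. A second Ldha window (chr7:46846832-46847081, plus strand), not shown, held 1 match, a GCGTG. Among the genes of the set, 27 of 30 matched the promoter table by symbol, with 40 windows. Slc2a3, Bnip3l and Ndrg1 had no match. Either motif was found in 32 of the 40 windows (80.0%), beside 12679 of all 32851 windows of the same length (38.6%). ACGTG alone was in 50.0% of the windows of the set and 16.6% of all, and GCGTG in 55.0% and 28.2%. Gpi1 and Tpi1 had no match in their windows. These are matches of letters, with base composition not matched between the sets, and a window of this length leaves out elements elsewhere.

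Glucose enters these cells through facilitative transporters. Slc2a1, which encodes GLUT1, the main glucose transporter of proliferating cells, held 81.6, 77.4 and 81.8 CPM in Ep300 siRNA libraries, against 96.1, 81.7 and 71.4 CPM in control siRNA libraries. The control libraries spanned the Ep300 siRNA ones on both sides, and the log2 fold change was −0.05 ± 0.09 (SE, edgeR adjusted p = 0.806). Slc2a3, which encodes the high-affinity GLUT3, averaged 12.7 ± 0.994 CPM after Ep300 siRNA and 13.2 ± 0.513 CPM after control siRNA (SD, n = 3 each). Per kilobase of exon, Slc2a1 was at 22.9 ± 0.705 CPM per kb after Ep300 siRNA and 23.7 ± 3.54 after control siRNA (SD, n = 3 each), and Slc2a3 at 1.75 ± 0.137 after Ep300 siRNA and 1.82 ± 0.0708 after control siRNA. Neither passed by edgeR, DESeq2 or limma-voom, and neither had an unadjusted p under 0.05.

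Hexokinases trap glucose as glucose 6-phosphate. Hk3, the isoenzyme typical of myeloid cells, was the highest of the 3 per kilobase in both groups, at 78.8 ± 1.14 CPM per kb after Ep300 siRNA and 75.7 ± 6.03 after control siRNA (SD, n = 3 each). It held 293.4, 291.3 and 285.3 CPM in Ep300 siRNA libraries, against 300.1, 280.0 and 255.8 CPM in control siRNA libraries, with the groups overlapping (log2 fold change 0.06 ± 0.07, SE, edgeR adjusted p = 0.684). Hk2 held 103.7, 100.1 and 101.6 CPM in Ep300 siRNA libraries, against 108.5, 122.6 and 113.2 CPM in control siRNA libraries. All Ep300 siRNA values were below all control siRNA values, but the change did not pass (log2 fold change −0.17 ± 0.06, SE, unadjusted p = 0.017, edgeR adjusted p = 0.123). Hk1, the broadly expressed mitochondrial isoenzyme, had −0.07 ± 0.06 on the log2 scale (SE, edgeR adjusted p = 0.571). Gpi1, the isomerase of the next step, was at 0.11 ± 0.07 (SE, edgeR adjusted p = 0.377). None of these 4 genes passed by DESeq2 or limma-voom.

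Pfkl, the liver-type subunit of phosphofructokinase, the committed step of glycolysis, was the gene of the set that rose. Pfkl (chromosome 10, 77986947 to 78010083, minus strand) held 80.1, 72.7 and 75.7 CPM in Ep300 siRNA libraries, against 62.6, 61.3 and 61.4 CPM in control siRNA libraries. Its groups lay apart, with little spread among the control siRNA libraries. It rose 1.23-fold (log2 fold change 0.30 ± 0.06, SE, 95% interval 0.17 to 0.43, edgeR adjusted p = 0.0116), and the call held in all 16 alternative fits that tested it (log2 fold change 0.27 to 0.34, adjusted p 0.000839 to 0.0495). Pfkp, the platelet-type subunit and the highest per kilobase, held 268.5, 272.0 and 280.1 CPM in Ep300 siRNA libraries, against 267.6, 263.6 and 267.0 CPM in control siRNA libraries. Its groups did not overlap, but the difference was small (log2 fold change 0.04 ± 0.06, SE, edgeR adjusted p = 0.739). Pfkm, the muscle-type subunit, was at 0.06 ± 0.07 (SE, edgeR adjusted p = 0.691).

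Set against each other per kilobase of exon, the shares of the phosphofructokinase mRNAs were uneven between groups. Pfkl took 31.0, 28.9 and 29.3% of the 3 subunit mRNAs in Ep300 siRNA libraries, against 26.2, 26.3 and 26.0% in control siRNA libraries. The mean was 29.8 ± 1.14% after Ep300 siRNA and 26.2 ± 0.120% after control siRNA (SD, n = 3 each), a difference of 3.60 percentage points. Pfkp took 53.2 ± 1.24% after Ep300 siRNA and 56.1 ± 0.324% after control siRNA, and Pfkm 17.0 ± 0.290% after Ep300 siRNA and 17.7 ± 0.311% after control siRNA. Among hexokinases, Hk2 took 14.4 ± 0.113% after Ep300 siRNA and 16.2 ± 1.23% after control siRNA, with no overlap, while Hk3 took 66.5 ± 0.743% after Ep300 siRNA and 63.8 ± 2.35% after control siRNA, with overlap. For Pfkl and for Hk2 the exact permutation p was 0.1 (two-sided), the smallest that 3 against 3 libraries can give, and 14 shares were computed. The shares of Pfkp, Pfkm, Ldha and Ldhb gave 0.1 too. Adjusted over the 14 shares by Benjamini-Hochberg, each of these permutation p-values was 0.233. Shares within a step sum to a fixed total, so the lower shares of Pfkp and Pfkm are not separate from the higher share of Pfkl. With the longest transcript as the length, Pfkl took 34.3% after Ep300 siRNA and 30.4% after control siRNA. Pfkfb3 and Pfkfb4, whose enzymes set the level of fructose 2,6-bisphosphate, the activator of phosphofructokinase, were at log2 fold changes of −0.07 ± 0.07 and −0.06 ± 0.09 (SE). Neither passed by edgeR, DESeq2 or limma-voom.

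**Figure D2:**
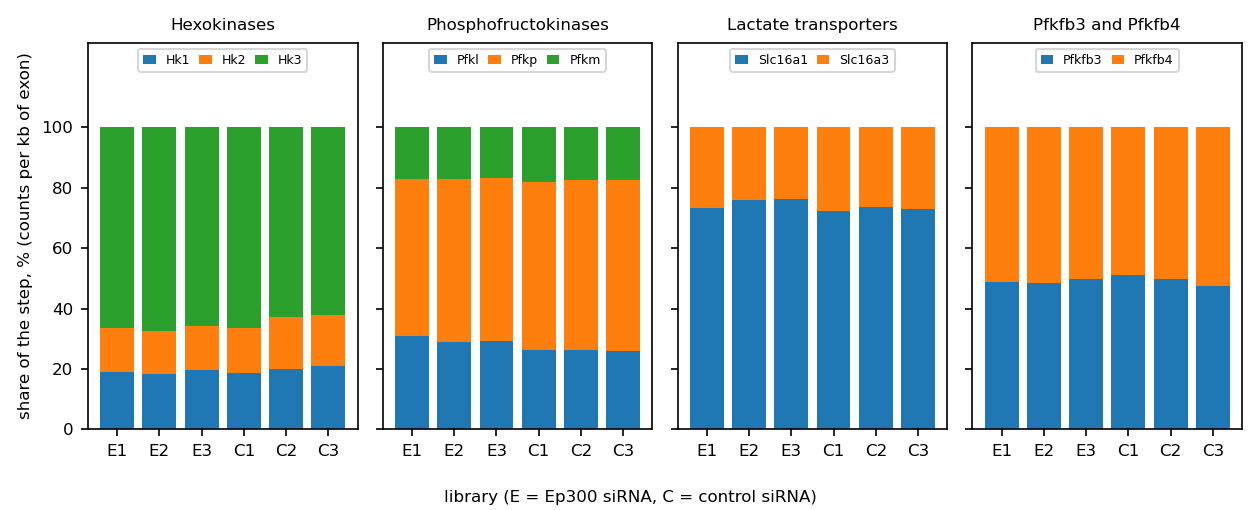
Stacked bars give, for each library (E, Ep300 siRNA, C, control siRNA, x axis), the percent of counts per kb of exon that each isoenzyme or transporter took of its step (y axis). The Pfkl share is 28.9 to 31.0% in Ep300 siRNA libraries and 26.0 to 26.3% in control siRNA libraries, while Hk3 stays the largest hexokinase share in all 6 libraries.

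The 7 enzymes from aldolase to pyruvate kinase carried most of the counts and showed no call in either direction. Their summed level was 6669 ± 373 CPM after Ep300 siRNA and 6601 ± 327 CPM after control siRNA (SD, n = 3 each). Pkm, pyruvate kinase, was the highest per kilobase of all 30, at 652 ± 42.2 CPM per kb after Ep300 siRNA and 648 ± 39.5 after control siRNA. It held 3438, 3028 and 3320.4 CPM in Ep300 siRNA libraries, against 3176, 3460.5 and 3081 CPM in control siRNA libraries, so each group held both high and low libraries (log2 fold change 0.01 ± 0.08, SE, edgeR adjusted p = 0.957). Aldoa, the main aldolase of these cells, was at 0.08 ± 0.08, Tpi1, triose phosphate isomerase, at 0.06 ± 0.06, and Gapdh, the dehydrogenase often used as a reference gene, at 0.02 ± 0.09. Pgk1, the first ATP-forming kinase, was at 0.01 ± 0.07, Pgam1, phosphoglycerate mutase, at −0.06 ± 0.07, and Eno1, enolase, at −0.03 ± 0.07 (log2 fold changes ± SE). The smallest adjusted p of the 7 was 0.617, none had an unadjusted p under 0.05, and none passed by DESeq2 or limma-voom. Control siRNA replicate 1 was high and replicate 3 low for Gapdh, with 228.3, 202.5 and 221.0 CPM in Ep300 siRNA libraries, against 244.5, 210.3 and 187.6 CPM in control siRNA libraries.

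Several of these enzymes have near-identical processed copies in the genome, so that the counting could split their reads. Of all 100-base windows of exon, 78.0% for Gapdh, 67.0% for Pgk1, 59.0% for Eno1 and 39.7% for Pgam1 also occur in another annotated gene, and values of these 4 genes are uncertain for that reason. Pfkl, Slc16a3, Slc16a1, Hk2, Vegfa and P4ha1 had no such window. Rows of Gapdh copies held 51.6% of the counts of Gapdh and its copies together. With the copies added, the log2 fold change of Gapdh was 0.03 ± 0.08 (SE, edgeR adjusted p = 0.878), and no gene of the set gained or lost a call.

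Slc16a3 was the gene of the set that fell. It encodes MCT4, the exporter of lactate from cells with high glycolysis (chromosome 11, 120948480 to 120960868, plus strand). Slc16a3 held 32.9, 30.3 and 32.5 CPM in Ep300 siRNA libraries, against 40.3, 37.3 and 41.8 CPM in control siRNA libraries. Every Ep300 siRNA library lay below every control siRNA library. It fell to 0.800 of the control siRNA mean (log2 fold change −0.32 ± 0.07, SE, 95% interval −0.47 to −0.17, edgeR adjusted p = 0.0174). The call was lost when Ep300 siRNA replicate 2 was left out (log2 fold change −0.29, edgeR adjusted p = 0.0802) or control siRNA replicate 3 (−0.28, 0.0712).

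The other 3 tested genes of the lactate step were also at negative values, none past the adjusted threshold, while Ldhb, which was too low to test, lay the other way. Ldha, the lactate dehydrogenase subunit that favours lactate formation (chromosome 7, 46841475 to 46855627, plus strand), held 243.4, 220.5 and 256.2 CPM in Ep300 siRNA libraries, against 278.7, 270.2 and 262.5 CPM in control siRNA libraries. Its groups did not overlap, by a margin of a few CPM between the closest libraries (log2 fold change −0.17 ± 0.07, SE, unadjusted p = 0.0268, edgeR adjusted p = 0.156). Slc16a1, which encodes the lactate transporter MCT1, held 74.5, 79.0 and 86.1 CPM in Ep300 siRNA libraries, against 87.9, 86.0 and 93.5 CPM in control siRNA libraries, with a slight overlap (log2 fold change −0.16 ± 0.07, SE, unadjusted p = 0.0394, edgeR adjusted p = 0.196). Pdk1, the kinase that turns pyruvate dehydrogenase off, was at −0.15 ± 0.08 (SE, edgeR adjusted p = 0.319). Ldhb, the other dehydrogenase subunit, had counts of 10, 10 and 8 in Ep300 siRNA libraries, against 6, 4 and 6 in control siRNA libraries. It was higher in every Ep300 siRNA library in CPM too, and in the 5 alternative fits that included it the log2 fold change was 0.93 to 1.20 (adjusted p 0.278 to 0.581). The median log2 fold change of the 4 tested genes of this step was −0.17. The 5 mRNAs of the step summed to 389.2, 360.7 and 410.4 CPM in Ep300 siRNA libraries, against 444.4, 433.7 and 436.1 CPM in control siRNA libraries. The sums did not overlap, and Ldha made up most of them. Sums of the phosphofructokinase mRNAs did not overlap either, but lay the other way. They were 370.8, 366.3 and 377.4 CPM in Ep300 siRNA libraries, against 351.8, 345.3 and 349.3 CPM in control siRNA libraries. For the remaining roles the sums overlapped. Per kilobase, Slc16a3 took 25.0 ± 1.62% of the 2 lactate transporter mRNAs after Ep300 siRNA and 27.1 ± 0.556% after control siRNA (SD, n = 3 each), with the groups overlapping.

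**Figure D3:**
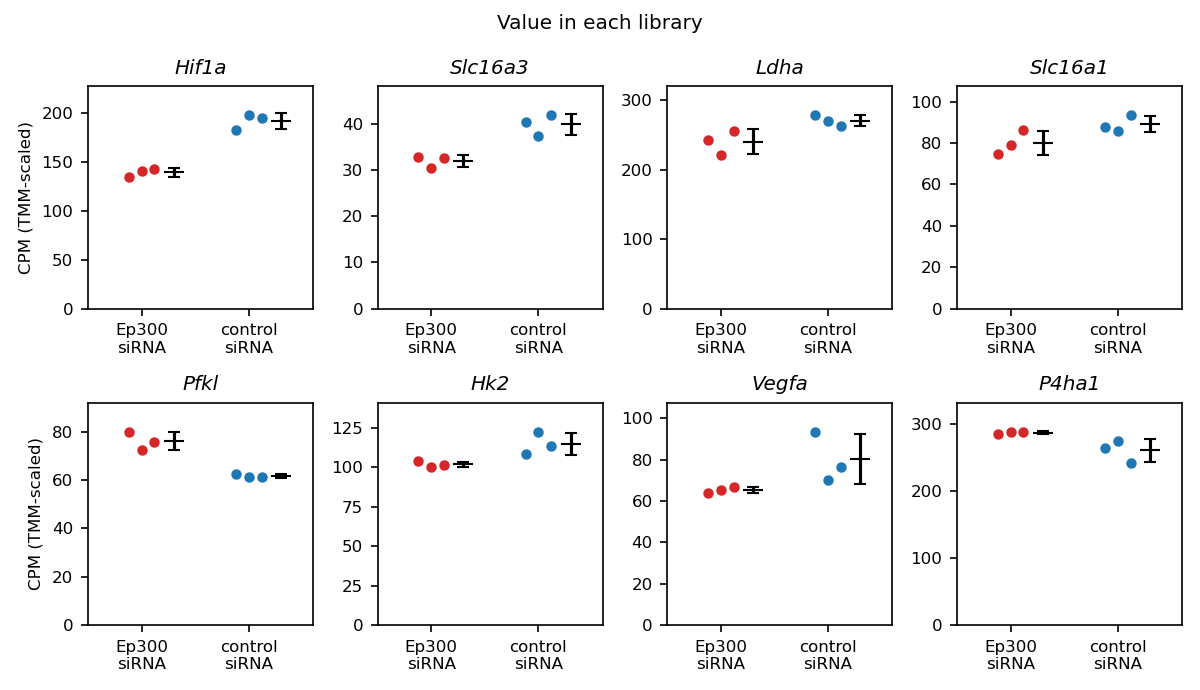
CPM in each library (points, y axis from 0) for Hif1a and the 7 genes of the set with an unadjusted p under 0.05, with the group mean and SD as bars beside the points. The groups are apart in every panel except that of Slc16a1, and control siRNA replicate 1 lies at 93.6 CPM for Vegfa, above the other control siRNA libraries.

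Of the 7 hypoxia targets outside glycolysis, none passed by edgeR or limma-voom, and Vegfa passed by DESeq2. Vegfa encodes an angiogenic growth factor (chromosome 17, 46016993 to 46032369, minus strand). It held 63.7, 65.4 and 66.9 CPM in Ep300 siRNA libraries, against 93.6, 70.2 and 76.6 CPM in control siRNA libraries. All Ep300 siRNA values lay below all control siRNA values, and control siRNA replicate 1 was the high one. The log2 fold change was −0.30 ± 0.09 (SE, unadjusted p = 0.00761, edgeR adjusted p = 0.080). It was −0.16 without control siRNA replicate 1 (edgeR adjusted p = 0.160), −0.29 by DESeq2 (adjusted p = 0.0309) and −0.30 with no filter on low counts (edgeR adjusted p = 0.00158). P4ha1, a collagen prolyl hydroxylase subunit, lay on the other side, with 284.6, 288.6 and 287.7 CPM in Ep300 siRNA libraries, against 264.1, 275.0 and 241.8 CPM in control siRNA libraries. Its groups did not overlap (log2 fold change 0.14 ± 0.06, SE, unadjusted p = 0.049, edgeR adjusted p = 0.223). P4ha1 was also the highest of the 7 per kilobase, at 69.8 ± 0.508 CPM per kb after Ep300 siRNA and 63.3 ± 4.11 after control siRNA (SD, n = 3 each). Bnip3 and Bnip3l, receptors for mitophagy, were at log2 fold changes of 0.06 ± 0.09 and 0.07 ± 0.06 (SE), and the stress-response gene Ndrg1 at 0.08 ± 0.08. Ankrd37 was low, at 2.51 ± 0.175 CPM after Ep300 siRNA and 2.93 ± 0.437 CPM after control siRNA (SD, n = 3 each). So was the mTORC1 inhibitor Ddit4, at 2.17 ± 0.139 CPM after Ep300 siRNA and 2.13 ± 0.490 CPM after control siRNA. Their log2 fold changes of −0.22 ± 0.17 and 0.02 ± 0.21 (SE) were the least precise of the set.

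**Figure D4:**
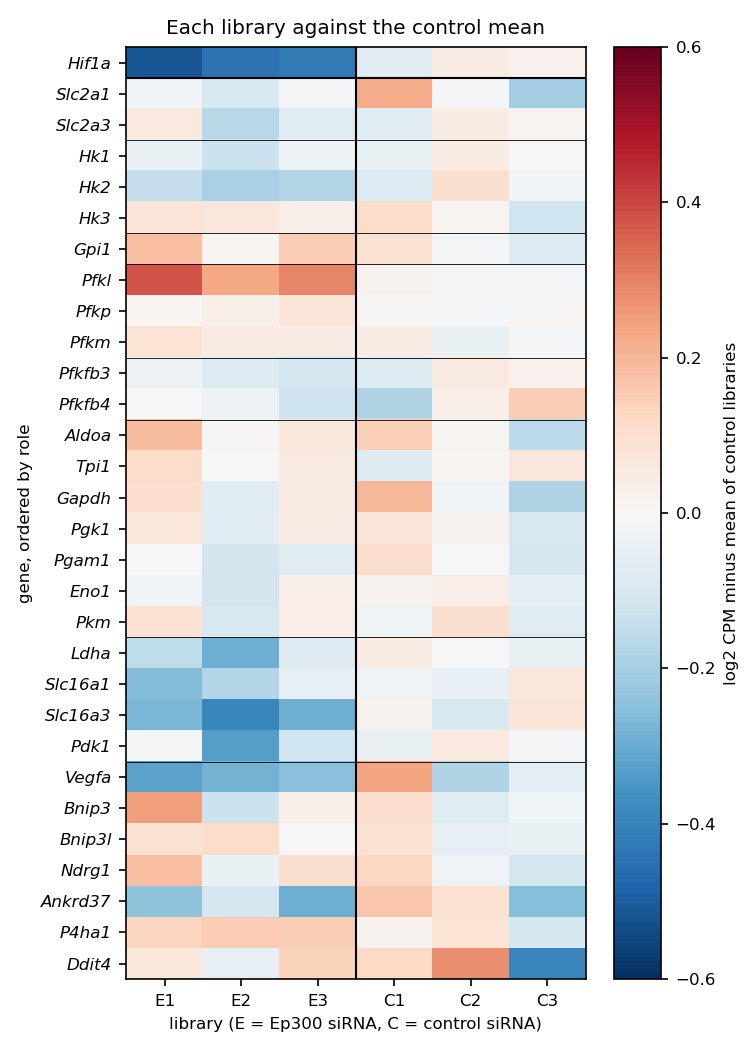
Each cell gives the log2 CPM of a gene (rows, ordered by role, Hif1a on top) in a library (columns, E, Ep300 siRNA, C, control siRNA) minus the mean of the control siRNA libraries. Hif1a is low in all 3 Ep300 siRNA libraries, Slc16a3 and Vegfa are low beside it, Pfkl is high, and the groups overlap in CPM for 22 of the 29 genes.

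Set beside Hif1a, 25 of the 29 tested genes had a 95% interval wholly above that of Hif1a (−0.59 to −0.33), beside 58.3% of all genes tested. An interval's width depends on a gene's level, which was not matched between the 29 and all genes. The interval held 0 for 22 of the 29, beside 77.8% of all genes. The intervals of Slc16a3, Vegfa, Ankrd37 and Ddit4 did not lie wholly above that of Hif1a. Those of the first 3 held the Hif1a value of −0.46, but that of Ankrd37 (−0.60 to 0.15) was wide and held 0 as well. That of Ddit4 (−0.43 to 0.47) overlapped the interval of Hif1a and also held 0. With 1 library left out, 19 to 26 intervals lay wholly above, the fewest without Ep300 siRNA replicate 1. The ratio of a gene's CPM to Hif1a CPM was higher in every Ep300 siRNA library than in every control siRNA library for 26 of 29 genes, beside 68.7% of all genes tested. The fall of Hif1a alone gives this to a gene that stays level, so nothing particular to the 29 is read from the count. For Slc16a3, Vegfa and Ankrd37 the ratios overlapped (two-sided exact permutation p = 0.2, 0.4 and 0.2, with 0.1 the smallest possible). All these values come from the same 6 libraries.

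Wider lists of the same routes held few further calls. Of 25 other genes of glycolysis, pyruvate and lactate, 20 were tested, 1 rose (5.00%, beside 2.76% of all genes) and none fell. The gene that rose was Aldoc, the brain-type aldolase. It held 67.1, 55.7 and 56.3 CPM in Ep300 siRNA libraries, against 47.0, 42.9 and 36.2 CPM in control siRNA libraries, with no overlap (1.42-fold, log2 fold change 0.50 ± 0.10, SE, edgeR adjusted p = 0.0119). DESeq2 and limma-voom each called Aldoc and no other gene of the list. Of the 20, 15 had a negative log2 fold change, beside 8004 of all 15741 genes tested, and the median was −0.05. At an unadjusted p under 0.05, 2 were higher and 5 lower (35.0%, beside 22.2% of all genes), and the groups were apart in CPM for 2 higher and 6 lower genes (40.0%, beside 27.5%). Of 30 other hypoxia genes, 28 were tested, 4 fell (14.3%, beside 4.02% of all genes) and none rose. Of the 28, 2 were higher and 7 lower at an unadjusted p under 0.05 (32.1%, beside 22.2% of all genes), and the median log2 fold change was −0.07. The groups were apart in CPM for 1 higher and 5 lower genes (21.4%, beside 27.5%). The 4 that fell were Bhlhe40, Mxi1, Ak4 and Adm. Adm lay under 1 CPM in every library and passed the filter on low counts only through its control siRNA libraries, where it was higher. Its fall is thus not independent of the filter, and the 14.3% that includes it is not read as a result about the list. Limma-voom called Bhlhe40, Mxi1 and Ak4. DESeq2 called those and Cxcr4, a chemokine receptor (DESeq2 adjusted p = 0.0431, edgeR adjusted p = 0.113).

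Bhlhe40, a repressor induced by hypoxia and by many other stimuli, held 40.8, 34.7 and 38.3 CPM in Ep300 siRNA libraries, against 52.5, 48.6 and 50.9 CPM in control siRNA libraries. Its fall (log2 fold change −0.42 ± 0.07, SE, edgeR adjusted p = 0.00568) was called in all 16 alternatives. Mxi1, an antagonist of MYC, held 130.0, 121.6 and 116.7 CPM in Ep300 siRNA libraries, against 150.1, 149.4 and 147.7 CPM in control siRNA libraries (−0.28 ± 0.06, adjusted p = 0.0176). Ak4, a mitochondrial adenylate kinase, held 22.7, 17.8 and 19.1 CPM in Ep300 siRNA libraries, against 25.0, 26.3 and 25.0 CPM in control siRNA libraries (−0.36 ± 0.09, adjusted p = 0.0369). The groups lay apart for both genes, yet the adjusted p reached 0.0846 for Mxi1 and 0.140 for Ak4 with 1 library left out. Adm, the vasodilator adrenomedullin, had counts of only 6, 10 and 10 in Ep300 siRNA libraries, against 35, 20 and 24 in control siRNA libraries. Its fall to 0.392 (95% interval 0.228 to 0.673, edgeR adjusted p = 0.0438) was lost by limma-voom (0.0501) and with any library left out (0.0880 to 0.150), and DESeq2 gave it no adjusted p. Of 13 HIF factors and oxygen sensors, 10 were tested, 2 fell (2 of 10, beside 4.02% of all genes) and none rose. That share includes Hif1a, whose fall was known beforehand, so it is not read as a result about the list. At an unadjusted p under 0.05, 2 were higher and 2 lower (40.0%, beside 22.2%). The higher genes were Epas1, at a log2 fold change of 0.50 ± 0.22 (SE, edgeR adjusted p = 0.199), and Hif1an, at 0.16 ± 0.07 (SE, edgeR adjusted p = 0.171). The 2 that fell, by DESeq2 and limma-voom as well, were Hif1a, whose fall prompted the comparison, and Cited2, whose protein competes with HIF-1α for p300, at 197.5 ± 13.7 CPM after Ep300 siRNA and 261.6 ± 9.53 CPM after control siRNA (SD, n = 3 each, log2 fold change −0.41 ± 0.07, SE, edgeR adjusted p = 0.00496). Arnt, the partner of HIF-1α, was at 0.12 ± 0.09 (SE, edgeR adjusted p = 0.458), and Crebbp, which encodes CBP, at 0.14 ± 0.07 (SE, edgeR adjusted p = 0.293).

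**Figure D5:**
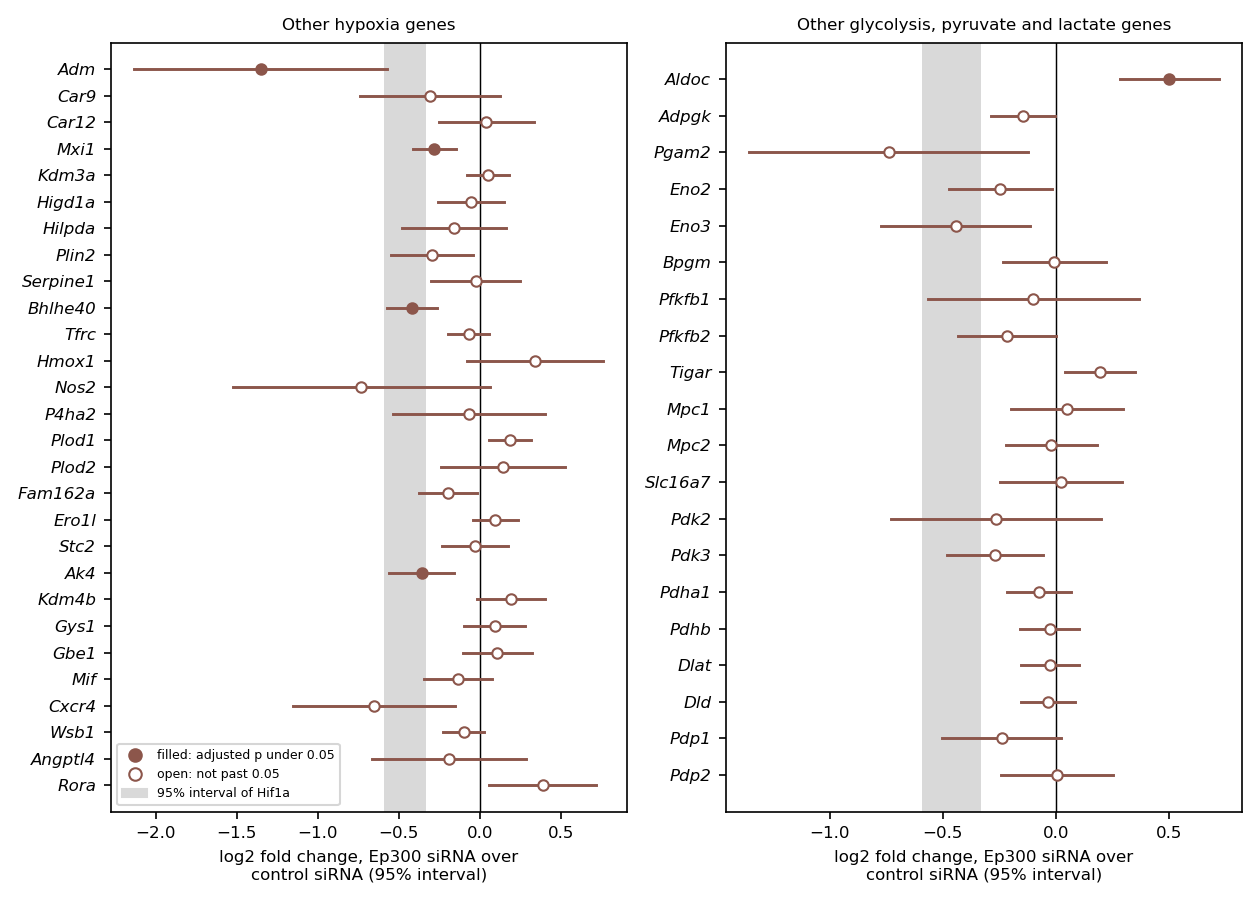
Log2 fold changes (Ep300 siRNA over control siRNA, x axis) with 95% intervals for the other hypoxia genes (left) and the other genes of glycolysis, pyruvate and lactate (right), with filled points past an adjusted p of 0.05 and the 95% interval of Hif1a in grey. Adm, Bhlhe40, Ak4 and Mxi1 are the filled points on the left, all below 0, and Aldoc at 0.50 is the one on the right.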

How the data were processed

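The authors deposited unnormalized read counts, 1 row per gene symbol and 1 column per library, and columns were matched to samples by name. The tools were STAR 2.5.3a, edgeR 3.12.1, fastp 0.23.4 and featureCounts, with the GRCm38 build, per the submitters' processing notes. The annotation and the counting's strand and multimapping settings were not given in the sources used here. From 79.8 to 80.88% of counts of 1 to 4 were even in each library, and halved counts were an alternative.

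The test was edgeR's quasi-likelihood F-test (version 4.0.16, R 4.3.3) with the group alone, after filterByExpr and TMM scaling. Two-sided p-values were adjusted over all 15741 tested genes by Benjamini-Hochberg, and a gene was called at an adjusted p under 0.05. The SE is the log2 fold change over the root of its F statistic. CPM uses TMM-scaled library sizes, and levels are compared between genes only per kilobase of merged exons (GENCODE M21). Promoter windows came from RefSeq (GRCm38.p6). The members and lists were chosen with earlier results of these data known. Named with full values were Hif1a, Ep300, members with an unadjusted p under 0.05 and the highest per kilobase of each role, and, in other lists, genes past the threshold or the smallest p. Alternatives used DESeq2 1.42.0 and limma 3.58.1 among others. Each library was counted as a replicate, as labelled. Within groups their counts differed beyond counting noise (9.191 to 32.94 for chi-square over its degrees of freedom), a value that counting both mates of a pair would also raise, so it does not show separate cultures. On simulated counts for 13077 genes, edgeR recovered 90% of genes changed 1.5-fold and 98% changed 2-fold, with 4 false among 198 calls. The simulation gave every gene the same variation beyond counting noise and held no library that stood apart. Its smallest change, 1.5-fold, was larger than that of Hif1a or any tested member. It therefore does not show how often changes of their size would be found. The common biological coefficient of variation was 8.62%. PCR reads are not independent molecules. Figures used Python 3.11.15, numpy 2.4.6, pandas 2.3.3 and matplotlib 3.10.9.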

Additional observations from a re-analysis of the deposited data

How the results depend on the processing

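Pfkl kept its direction in every alternative run and its call in each at an adjusted p under 0.05, and Slc16a3 kept its direction. The members called numbered 1 to 2 with 1 library left out, 3 by DESeq2 and with no filter on low counts, and 2 in the other alternatives at the same threshold. At an adjusted p under 0.01 there were 0 by edgeR (7 at an unadjusted p under 0.05), 2 by DESeq2 and 0 by limma-voom. Over all genes tested the count of 1068 was 1721 with no filter on low counts, 369 at an adjusted p under 0.01 and 490 to 1054 with 1 library left out. It was 490 without control siRNA replicate 2, 533 without Ep300 siRNA replicate 2, 593 without control siRNA replicate 3, 696 without Ep300 siRNA replicate 3 and 698 without Ep300 siRNA replicate 1. The cause was not tested. With 1 library left out, the groups hold 2 and 3 libraries and fewer degrees of freedom.

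With library sizes alone as the scaling, Gapdh was at −0.014, Pgk1 at −0.020, Pkm at −0.023 and Ddit4 at −0.010 on the log2 scale, each with the other sign than above. With 1 library left out, log2 fold changes ran from −0.062 to 0.13 for Gapdh, −0.028 to 0.056 for Pgk1, −0.021 to 0.070 for Pkm, −0.040 to 0.14 for Bnip3, −0.063 to 0.013 for Eno1, −0.14 to 0.17 for Ddit4, −0.14 to 0.073 for Slc2a1 and −0.14 to 0.025 for Pfkfb4. None of these genes passed the test in any of these fits, so no direction is given for them.

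Replicate numbers are shared between groups in the labels, but same-numbered libraries did not deviate together (correlations 0.087, 0.020 and −0.047), and not every library correlated best with its own number. With the replicate block, 1357 genes passed over all genes tested and 2 of the 29 members, while the other hypoxia genes called numbered 7 in place of 4 and Adm did not pass (adjusted p = 0.0674). Adding the rows of near-identical copies was chosen after seeing the data, and 1070 genes passed. Ankrd37, Ddit4, Ldhb and Adm are limited by depth, with at most a few CPM in each library.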
